A study of Homo sapiens with 40 samples.

Results

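Doxycycline induction of Cas9 is the handle by which this series removes a gene, and RKO iCas9 cells with guide RNAs against the AAVS1 locus are the control for it. The comparison described here is that control: 4 libraries of sgAAVS1 cells given doxycycline (Dox) against 4 libraries of the same line given DMSO as the control, that is 8 of the 40 libraries, over the 11428 genes tested of 19962 in the count table. The members are these 8 libraries, chosen by their labels, and the account covers all expressed genes outside the p53, cell cycle and interferon themes and the distal part of chromosome 17q. RKO is an established human colorectal carcinoma line. The cells carried a Dox-inducible Cas9 with GFP and a vector that expresses a pair of guides from human and mouse U6 promoters together with a blue fluorescent protein, and cells positive for the blue protein were sorted. Dox was given at 250 ng/mL for 72 h. Both groups also received 250 µM 4-thiouridine (s4U) for 2 h, so the nucleoside is shared by all libraries compared. Each library came from a well of a culture plate in an experiment made in quadruplicate. Where nothing says that the wells were independent cultures, the p-values measure the spread between wells. That spread was estimated over all 40 libraries of the series, which include groups given small interfering RNA (siRNA). The 2 lines used for comparison, sgIGF2BP2 and sgIGF2BP3, differ in their guides, which target the genes of the RNA-binding proteins IGF2BP2 and IGF2BP3, and have 4 DMSO and 4 Dox libraries each.

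Doxycycline is a tetracycline antibiotic. In inducible systems it switches a transgene promoter, and at sufficient doses tetracyclines are known to slow protein synthesis by the mitochondrial ribosome, which resembles the bacterial one. Cas9 cuts both DNA strands where a guide matches beside an NGG motif, and cells with an intact p53 pathway, as RKO cells have, respond to such breaks. AAVS1 is the name of a locus at PPP1R12C, which encodes a regulatory subunit of myosin phosphatase, and it is widely used as a control site because cutting there is thought to disturb cells little. Dox, Cas9 protein and cutting change together between the 2 groups, and whether the Dox cells also received DMSO is not given in the sources used here, so their parts in a difference cannot be told apart here. In bulk RNA, a change in a fraction of the cells and a smaller change in every cell also cannot be told apart.

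The 2 control guides are shown because they are what Cas9 was directed with, in lower case and 5′ to 3′.
AAVS1 guide 1: cgctgtgccccgatgcacac
AAVS1 guide 2: ggcgcgtcgctcgctcgctc
Guide 1 matched the forward strand of chr19:55117789-55117808 (GRCh38.p14) without a mismatch, 152 to 171 bases before the RefSeq start of PPP1R12C, which runs on the reverse strand. No gene of GENCODE 29 covered the site, which lies 230 bases before that annotation's start of PPP1R12C. The stretch around it is shown with the protospacer in capitals, followed by its TGG motif.
PPP1R12C upstream site: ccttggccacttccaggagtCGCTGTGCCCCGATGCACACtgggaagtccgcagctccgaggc
Guide 2 had no match with fewer than 4 mismatches beside an NGG motif in the 27305 promoter windows of RefSeq or in the GENCODE 29 transcripts. Introns and intergenic sequence were not searched, since no genome sequence was used here. The PPP1R12C transcript itself was at 136, 137, 150 and 134 CPM with DMSO and 130, 142, 136 and 136 CPM with Dox. These groups overlapped, and the log2 fold change was -0.032 ± 0.044 (SE, adjusted p = 0.687), with a sign that turned under other scalings. Over the 73 tested genes of chromosome 19 from PPP1R12C to the end of the chromosome, the median log2 fold change was -0.028, with 7 genes lower and 4 higher.

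Total counts of the 8 libraries ranged from 11133895 to 17183528, and 12653 to 12850 genes had a count. Of 10 colon epithelium markers, 2 passed the filter on low counts, and of 12 markers of blood, endothelial, stromal, liver and islet cells none did, with at most 5 counts in a library. The colon markers VIL1, KRT20, LGALS4, MUC2, TFF3, GUCY2C, CDH17 and CDX1 were at 0 to 4 counts, and the epithelial cadherin CDH1 was at 0 or 1, so the label of a colorectal carcinoma line rests on the submitters' description and not on these transcripts.

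A gene is called here when its Benjamini-Hochberg adjusted p-value from edgeR's quasi-likelihood test is under 0.05, and every adjusted p below is of that kind. In all, 1841 genes (16.1% of those tested) were called, 841 higher with Dox (7.36%) and 1000 lower (8.75%). With upper-quartile scaling the balance turned, to 985 higher and 836 lower. The changes were mostly small. The median size of a called change was 0.20 on the log2 scale, 923 called genes moved by less than 0.2, and 27 (0.236%) moved by at least 2-fold. Rises and falls differed in kind: 115 called rises but 12 called falls reached 0.5 on the log2 scale. Falls gathered among abundant transcripts. Of the 3421 genes whose mean log2 CPM reached 6, 20.6% were called lower and 6.17% higher. Several lists of abundant genes are read against these shares below. On chromosome 17q from SPOP to the end, 132 of 251 tested genes were lower and 1 was higher, against 7.77% lower and 7.52% higher of the genes elsewhere. Genes named from that segment are therefore marked where they are first described. Counts of called list members include genes of that segment, and not every count is split. SPOP, which recruits substrates to cullin 3 ubiquitin ligases, was at 38.9, 36.5, 35.7 and 35.8 CPM with DMSO and 11.4, 13, 10.1 and 11.1 CPM with Dox, a log2 fold change of -1.68 ± 0.077 (SE, adjusted p = 2.47e-32).

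**Figure D1:**
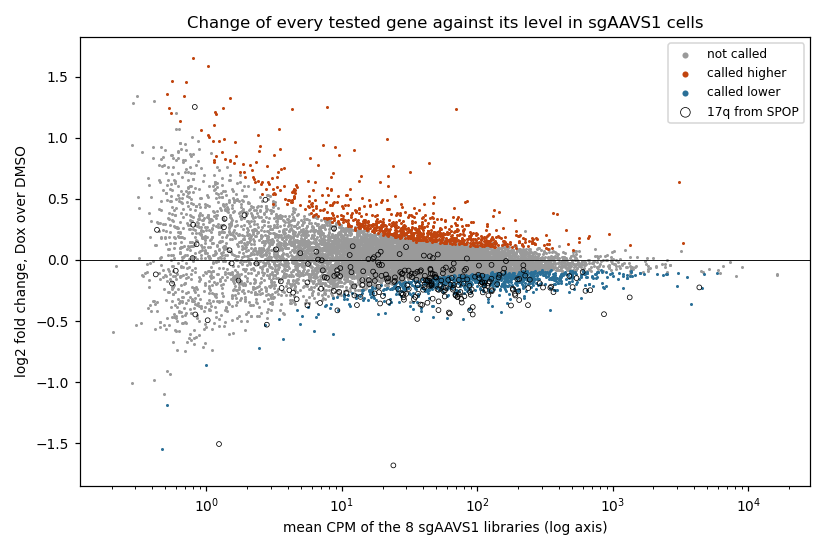
Log2 fold change (Dox over DMSO) of each tested gene against its mean CPM over the 8 sgAAVS1 libraries, on a log axis; colours mark genes called higher or lower and open circles mark genes of 17q from SPOP. Rises of 0.5 or more (115 genes) outnumber falls of that size (12 genes), while at high CPM most called genes lie a little below 0.

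The genes of the 53 pathway lists numbered 1573 tested, of which 385 were called, 151 higher and 234 lower. These are 20.9% of all called genes, so most called genes belong to no list. Where a count of 0 called members in a direction is given below, DESeq2 also called 0, and 0 to 2 members had an unadjusted edgeR p under 0.05 that way. Lists with the greatest share of higher members were hypoxia response, lysosome and V-ATPase, YAP and TAZ targets, extracellular matrix and integrins, NF-kB and cytokines, and TGF-beta and BMP response. Those with the greatest share of lower members were ribosome biogenesis, serine, one-carbon and nucleotide synthesis, glycolysis, fatty acid synthesis, and tubulins and motors.

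**Figure D2:**
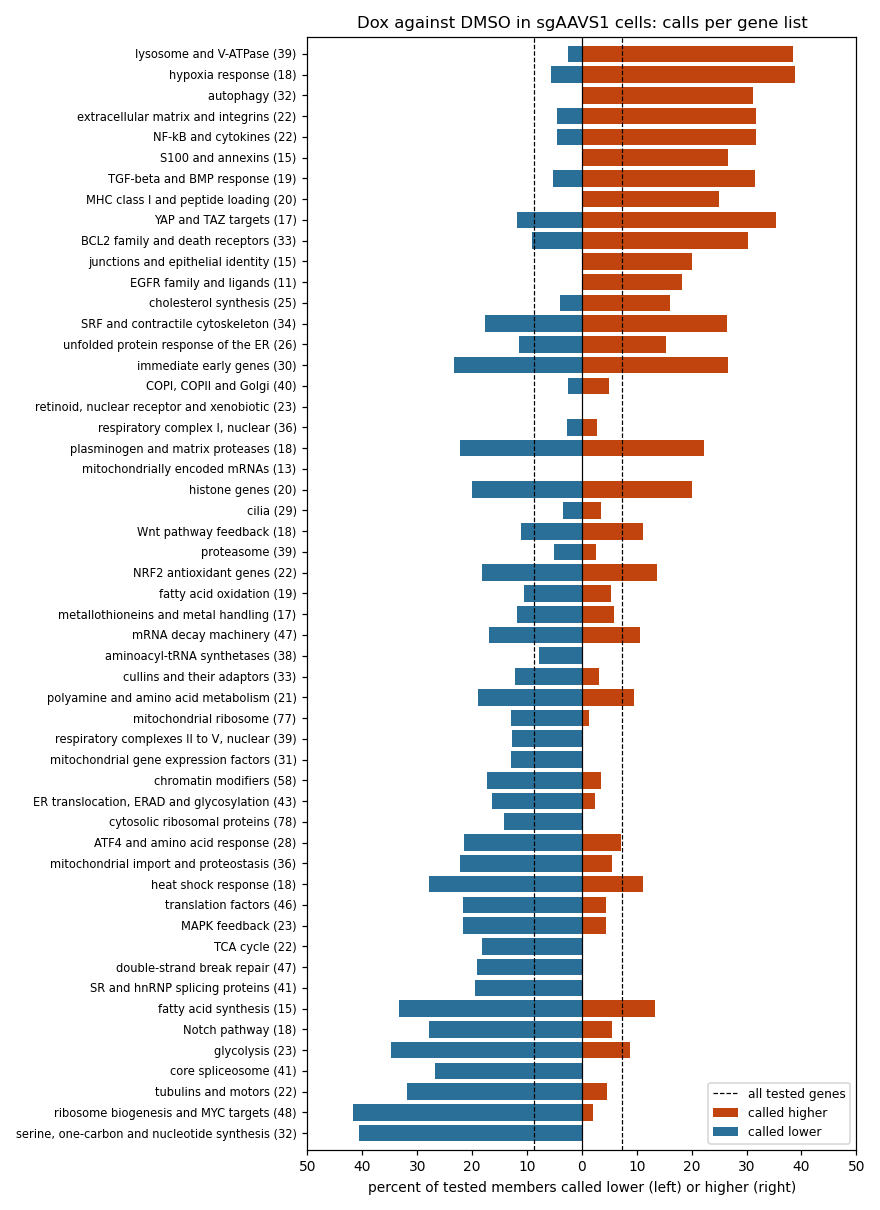
Percent of the tested members of each of 53 gene lists called higher (right) or lower (left) with Dox in sgAAVS1 cells; the number tested is in parentheses and dashed lines give the shares over all tested genes, 7.36% higher and 8.75% lower. Lysosome (38.5% higher) and ribosome biogenesis (41.7% lower) lie far from the dashed lines on opposite sides.

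Actin-based contraction rests on myosin light chains, tropomyosins and actin cross-linkers, many of which are transcribed under serum response factor (SRF) when the actin pool polymerises. Of 34 tested genes of this list, 9 rose and 6 fell, with a median of 0.03. Abundant members numbered 26, with 6 higher and 6 lower, against 6.17% and 20.6% of abundant genes in all. TAGLN, the actin cross-linker transgelin, was at 13.9, 15.2, 14.4 and 13.8 CPM with DMSO and 30.3, 28.2, 30.4 and 24.9 CPM with Dox. Every Dox library lay above every DMSO library, and the log2 fold change was 0.99 ± 0.077 (SE, adjusted p = 4.85e-18). CALD1, caldesmon, which restrains actomyosin, was at 31.5, 32, 33.4 and 33 CPM with DMSO and 56, 53.9, 57.8 and 57.5 CPM with Dox, with no overlap and a log2 fold change of 0.79 ± 0.055 (SE, adjusted p = 1.43e-20). The regulatory light chain MYL9 was at 70.5, 69.1, 68.9 and 69.4 CPM with DMSO and 95.4, 89.8, 101 and 103 CPM with Dox, also without overlap. Its log2 fold change was 0.48 ± 0.048 (SE, adjusted p = 2.76e-13). The tropomyosin TPM2 and the transgelin paralog TAGLN2 rose by 0.38 and 0.33. Not all of the list moved that way. Some abundant members fell slightly: ACTG1, the cytoplasmic gamma-actin, which lies on the 17q segment, by 0.22, and MYH9, non-muscle myosin heavy chain IIA, by 0.11. SYNPO, synaptopodin, an actin-associated protein outside this list, was at 8.79, 8.26, 8.47 and 9.01 CPM with DMSO and 15.1, 17.4, 16.9 and 15.4 CPM with Dox, a log2 fold change of 0.90 ± 0.094 (SE, adjusted p = 2.43e-12). The smooth muscle actin ACTA2 gave 0.40 ± 0.17 (SE, adjusted p = 0.0879) and was not called. ACTA2 shares exon bases with FAS on the opposite strand, as TAGLN does with PCSK7, and the sources used here do not say whether the counts used strand.

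YAP and TAZ are co-activators that answer to cell spreading and tension, with the matricellular genes CCN1 and CCN2 among their best known targets. Of 17 tested members, 6 rose and 2 fell, with a median of 0.20. CCN1 was at 114, 116, 116 and 115 CPM with DMSO and 154, 149, 158 and 153 CPM with Dox. Its 4 Dox values all lay above the DMSO values, with a log2 fold change of 0.41 ± 0.039 (SE, adjusted p = 1.06e-13). CCN2 was at 30.5, 33.1, 32.3 and 32.3 CPM with DMSO and 42.6, 45.5, 43.6 and 39.1 CPM with Dox, a log2 fold change of 0.41 ± 0.063 (SE, adjusted p = 5.16e-07). The membrane repair protein MYOF, at 3.71, 4.47, 4.27 and 4.3 CPM with DMSO and 6.14, 7.25, 8.67 and 8.18 CPM with Dox, rose by 0.84 ± 0.14 (SE, adjusted p = 4.68e-06). AXL, a receptor tyrosine kinase and also a YAP target, went the other way, with a log2 fold change of -0.14 ± 0.031 (SE, adjusted p = 0.000576). CCN3, a relative of CCN1 and CCN2, was low, at 1.82, 2.1, 2.59 and 2.47 CPM with DMSO and 4.99, 3.24, 4.29 and 3.71 CPM with Dox, and rose by 0.86 ± 0.17 (SE, adjusted p = 7.27e-05).

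Cells hold matrix through integrins and syndecans, and remodel it with the plasminogen system and matrix metalloproteinases. In the list of extracellular matrix and integrins, 7 of 22 tested genes rose and 1 fell. The integrin subunit ITGAV, part of vitronectin receptors, was at 43.7, 35.6, 42.6 and 44 CPM with DMSO and 51.2, 57.6, 49.2 and 52.1 CPM with Dox, with no overlap and a log2 fold change of 0.34 ± 0.069 (SE, adjusted p = 0.000249). The syndecan SDC4 and the laminin chain LAMB1 rose by 0.22 and 0.20. ITGB1, the common beta subunit, was level at 0.01 ± 0.038 (SE, adjusted p = 0.891), and fibronectin (FN1) had no count in any of the 8 libraries. Among the proteases and their regulators, 4 of 18 rose and 4 fell, the rises becoming 2 without DMSO replicates 1 or 2 or Dox replicate 3. The collagenase MMP1 was at 9.02, 11.1, 9.92 and 11.6 CPM with DMSO and 6.95, 7.34, 6.08 and 7.12 CPM with Dox, and no Dox library reached the lowest DMSO library. Its log2 fold change was -0.60 ± 0.12 (SE, adjusted p = 9.82e-05). PLAU, the urokinase that activates plasminogen, was at 13, 12.6, 12.4 and 13.9 CPM with DMSO and 8.97, 9.98, 9.03 and 12 CPM with Dox, a log2 fold change of -0.38 ± 0.097 (SE, adjusted p = 0.00307). The urokinase receptor PLAUR and the membrane metalloproteinase MMP14 fell by 0.16 and 0.16, while the sheddase ADAM9 rose by 0.34. The 4 called falls of the list were thus MMP1, PLAU, PLAUR and MMP14. Of 15 tested junction and epithelial genes 3 rose and 0 were called lower, among them the desmosomal plakophilin PKP3, by 0.28.

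**Figure D3:**
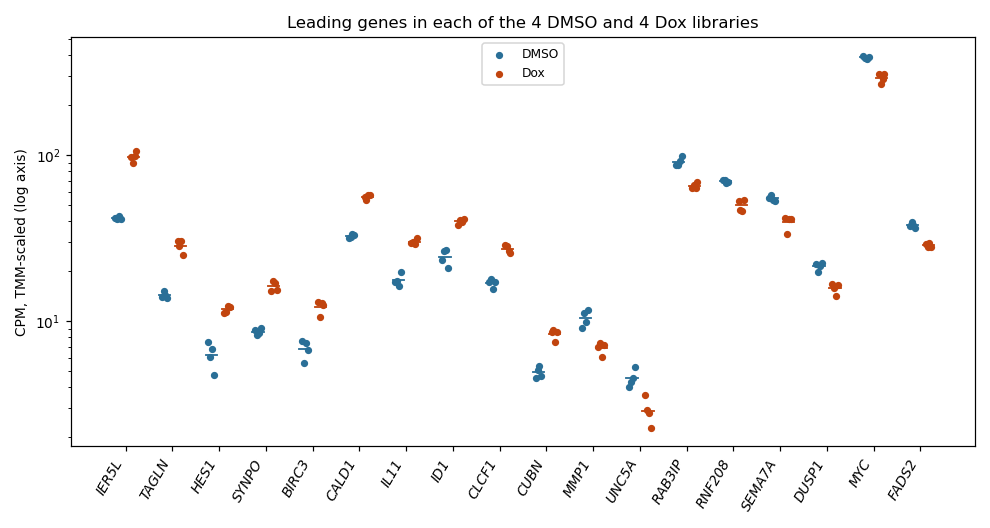
CPM of leading genes in each of the 4 DMSO and 4 Dox libraries of sgAAVS1 cells on a log axis; points are libraries and short lines are group means. For the 10 genes on the left the Dox points sit above the DMSO points, and for the 8 on the right below them. The rule that chose these 18 genes required that the groups not overlap.

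In the TGF-beta and BMP response, SMAD proteins carry the signal and ID proteins are early BMP targets that block basic helix-loop-helix factors. Of 19 tested genes 6 were called higher and 1 lower, but the count of rises dropped to 3 without DMSO replicate 2 or without DMSO replicate 4. ID1 was at 23.2, 26.4, 26.8 and 21 CPM with DMSO and 37.8, 40.9, 39.4 and 41.5 CPM with Dox. The groups did not overlap, and its log2 fold change was 0.72 ± 0.069 (SE, adjusted p = 1.23e-13). SKIL, a feedback repressor of SMADs, was at 6.44, 4.74, 4.12 and 4.42 CPM with DMSO and 7.15, 8.1, 7.42 and 6.67 CPM with Dox, with a log2 fold change of 0.58 ± 0.14 (SE, adjusted p = 0.00149). The ligand TGFB1 fell by 0.14. In the Notch pathway, ligands such as JAG2 on one cell release the Notch domain in its neighbour, and HES1 is the classical target. Of 18 tested genes 1 rose and 5 fell (1 on the 17q segment), 2 without DMSO replicate 1. The riser was HES1, at 7.5, 6.03, 6.79 and 4.71 CPM with DMSO and 11.2, 11.3, 12.3 and 12.1 CPM with Dox. Its log2 fold change was 0.92 ± 0.12 (SE, adjusted p = 1.27e-08). The ligand JAG2 fell by 0.18. Of 18 Wnt feedback genes 2 rose and 2 fell. SOX9, a Wnt-linked transcription factor on the 17q segment, was low in both groups, at 1.82, 1.35, 1.83 and 2.36 CPM with DMSO and 0.81, 0.597, 0.715 and 0.455 CPM with Dox, and its log2 fold change was -1.51 ± 0.31 (SE, adjusted p = 0.000224). In the list of nuclear receptor and xenobiotic genes 0 of 23 tested genes were called by edgeR.

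Immediate early genes are switched on within minutes of a stimulus without new protein synthesis. Dox was given for 72 h and both groups also received s4U for 2 h. Whether a change here is lasting or a recent response was not tested. Of 30 tested members 8 rose and 7 fell, so the list split. IER5L, of the immediate early response 5 family, had the greatest rise among the genes named by rule outside the excluded themes. It was at 41.8, 41.4, 42.7 and 41 CPM with DMSO and 97.4, 89.5, 99.2 and 106 CPM with Dox, with each Dox library above 2-fold of the DMSO mean, with a log2 fold change of 1.24 ± 0.060 (SE, adjusted p = 1.72e-27). FOSB, an AP-1 subunit, was at 27, 27.4, 30.5 and 31 CPM with DMSO and 39.6, 37.6, 40.7 and 38 CPM with Dox, a log2 fold change of 0.43 ± 0.062 (SE, adjusted p = 1.27e-07), and its dimer partners JUND and JUNB rose by 0.25 and 0.22. The serum-responsive genes FOS, EGR1 and IER2 were not called, at 0.096 ± 0.093 (SE, adjusted p = 0.542), -0.045 ± 0.046 (SE, adjusted p = 0.57) and -0.081 ± 0.038 (SE, adjusted p = 0.143). MYC, a driver of growth and ribosome synthesis, was at 398, 386, 382 and 394 CPM with DMSO and 311, 269, 289 and 307 CPM with Dox. The highest Dox library was below the lowest DMSO library, and the log2 fold change was -0.41 ± 0.043 (SE, adjusted p = 1.04e-10). ZFP36L1, which promotes decay of AU-rich mRNAs, fell by 0.25.

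ERK signalling induces its own brakes, the DUSP phosphatases and Sprouty proteins, so their mRNAs are commonly read as a gauge of the pathway. Of 23 tested feedback genes 1 rose and 5 fell. DUSP6, the cytoplasmic ERK phosphatase, was at 146, 133, 132 and 129 CPM with DMSO and 110, 102, 105 and 109 CPM with Dox, with no overlap and a log2 fold change of -0.34 ± 0.041 (SE, adjusted p = 4.47e-10). DUSP1, a nuclear MAP kinase phosphatase that is also an immediate early gene, was at 22, 19.8, 21.5 and 22.4 CPM with DMSO and 16.6, 15.8, 14.2 and 16.4 CPM with Dox, a log2 fold change of -0.44 ± 0.083 (SE, adjusted p = 4.2e-05). SPRY4 and PHLDA1 fell by 0.20 and 0.22. SPRY2 was not called, at 0.00092 ± 0.080 (SE, adjusted p = 0.995), with a sign that turned under other scalings, and SPRED1 was not called, at 0.12 ± 0.072 (SE, adjusted p = 0.285).

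NF-kB drives cytokines, adhesion molecules and its own inhibitors. Of 22 tested genes 7 rose and 1 fell, with a median of 0.17. BIRC3, an inhibitor of apoptosis and NF-kB target, was at 7.58, 5.55, 7.32 and 6.65 CPM with DMSO and 13, 10.5, 12.8 and 12.5 CPM with Dox. Its log2 fold change was 0.86 ± 0.11 (SE, adjusted p = 3.65e-09), without overlap. The cytokine IL11 was at 17.1, 17.5, 16.2 and 19.7 CPM with DMSO and 29.6, 29.9, 29.1 and 31.7 CPM with Dox, a log2 fold change of 0.77 ± 0.079 (SE, adjusted p = 1.9e-12). ICAM1, an adhesion molecule for leukocytes, was at 72.1, 80.7, 81.2 and 73.3 CPM with DMSO and 96.2, 92.5, 90.9 and 94.3 CPM with Dox, with a log2 fold change of 0.28 ± 0.044 (SE, adjusted p = 8.1e-07), and the precursor subunit NFKB2 rose by 0.20. REL, an NF-kB subunit, rose by 0.57 ± 0.15 (SE, adjusted p = 0.00565) although one Dox library (3.93 CPM) lay below the highest DMSO library (4.12 CPM). TNFAIP3, the A20 inhibitor, was not called, at 0.17 ± 0.15 (SE, adjusted p = 0.498). The cytokines of the IL6 family did not move together: CLCF1 was at 17.1, 17.9, 15.5 and 17.1 CPM with DMSO and 28.9, 28.3, 26.4 and 25.6 CPM with Dox and rose by 0.69 ± 0.080 (SE, adjusted p = 1.29e-10), while LIF was at 142, 139, 131 and 140 CPM with DMSO and 120, 122, 117 and 123 CPM with Dox and fell, with a log2 fold change of -0.20 ± 0.043 (SE, adjusted p = 0.000372).

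Ribosomes are assembled in the nucleolus by snoRNA-guided enzymes and many processing factors, a good part of them MYC targets. Of 48 tested genes of ribosome biogenesis 20 fell and 1 rose, with a median of -0.091. Among its 36 abundant members 18 were lower, against 20.6% of abundant genes in all. The count of falls dropped to 12 without DMSO replicate 2. NOP56, a core protein of box C/D snoRNPs, was at 420, 420, 426 and 425 CPM with DMSO and 353, 359, 369 and 349 CPM with Dox. Its 4 Dox libraries all lay below the DMSO libraries, and the log2 fold change was -0.24 ± 0.032 (SE, adjusted p = 1.34e-08). NOB1, the nuclease that finishes 18S rRNA, was at 118, 124, 120 and 115 CPM with DMSO and 107, 90.8, 105 and 99.5 CPM with Dox, a log2 fold change of -0.25 ± 0.041 (SE, adjusted p = 4.11e-06). DKC1, the pseudouridine synthase of box H/ACA snoRNPs and telomerase, fell by 0.17, and NOP14 and MYBBP1A, nucleolar proteins of the small subunit pathway and of rRNA transcription control, by 0.14 and 0.13. The abundant nucleolar proteins NCL and FBL were not called, at -0.034 ± 0.032 (SE, adjusted p = 0.528) and -0.10 ± 0.045 (SE, adjusted p = 0.114). The greatest fall of the list was that of NOB1, so its changes were small.

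The E-box CACGTG, read the same on both strands, is the site that MYC with MAX and the lysosomal factors TFEB and TFE3 can bind. It was found in 7.43% of all 27305 RefSeq promoter windows (250 bases before to 50 after a start) and in 10.4% of the 9360 tested genes with a window. Of the 40 ribosome biogenesis genes with a window 13 held it, and of the 27 lysosome genes 9 did. Of the called members, 5 of 17 falling ribosome biogenesis genes and 2 of 8 rising lysosome genes held it. Neither share was above that of the whole list (32.5% and 33.3%), so called members did not hold it more often. Over all genes, it was in 8.22% of those called higher and 13.4% of those called lower. The stretches below, from RefSeq on GRCh38.p14 and on the strand of the gene, show it in capitals for 2 genes that fell and 2 that rose. These genes were picked as called members that hold it, and a link between motif and change was not tested. They lie at chr4:2963374-2963403 on the reverse strand (NOP14), chr17:4555340-4555369 reverse (MYBBP1A), chr6:31862930-31862959 reverse (NEU1) and chr9:114587699-114587728 forward (ATP6V1G1).
NOP14: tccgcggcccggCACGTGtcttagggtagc
MYBBP1A: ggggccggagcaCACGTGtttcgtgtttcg
NEU1: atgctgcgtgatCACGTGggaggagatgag
ATP6V1G1: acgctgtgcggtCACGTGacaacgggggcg
A match describes the letters of a window and not the binding of a factor.

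Of 78 tested cytosolic ribosomal protein genes 11 were called lower and 0 higher by edgeR, a share of 14.1% that is below that of abundant genes in all, and the count ranged from 3 to 15 when single libraries were left out. It was 3 without DMSO replicate 3 or without Dox replicate 2, 4 without Dox replicate 1 and 5 without DMSO replicate 2. RPLP0, of the ribosomal stalk, was at 2610, 2720, 2640 and 2540 CPM with DMSO and 2390, 2390, 2480 and 2440 CPM with Dox, a log2 fold change of -0.12 ± 0.034 (SE, adjusted p = 0.00934). Of 46 translation factors 10 fell (21.7%) and 2 rose. Among the 38 abundant members 10 were lower, against 20.6% for abundant genes in all. EIF4EBP1, the mTOR-controlled repressor of cap binding, was at 151, 147, 152 and 145 CPM with DMSO and 129, 122, 134 and 131 CPM with Dox and fell by 0.20, the elongation factor EEF2 by 0.11 and the scaffold EIF4G1 by 0.14. The cap-binding protein EIF4E was not called, at 0.062 ± 0.057 (SE, adjusted p = 0.517). Of 38 aminoacyl-tRNA synthetases 3 were lower, 1 without DMSO replicate 2.

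Glycolysis turns glucose to pyruvate and lactate, and hypoxia-inducible factors raise many of its enzymes. Of 23 tested glycolysis genes 8 fell and 2 rose. Among the 18 abundant members 8 were lower, against 20.6% of abundant genes in all. GAPDH was at 4740, 5090, 5090 and 4860 CPM with DMSO and 4270, 4090, 4300 and 4240 CPM with Dox, without overlap, with a log2 fold change of -0.23 ± 0.033 (SE, adjusted p = 1.71e-07). ENO1, enolase, was at 3230, 3300, 3180 and 3040 CPM with DMSO and 2700, 2750, 2770 and 2750 CPM with Dox, a log2 fold change of -0.22 ± 0.033 (SE, adjusted p = 4.48e-07). LDHA, which makes lactate, fell by 0.20, and the lactate exporter SLC16A3, on the 17q segment, by 0.37. PKM, pyruvate kinase, went up against its neighbours in the pathway, at 3130, 3280, 3130 and 2960 CPM with DMSO and 3410, 3440, 3450 and 3460 CPM with Dox, a log2 fold change of 0.14 ± 0.032 (SE, adjusted p = 0.000693). The hypoxia list moved otherwise. Of its 18 tested genes 7 rose and 1 fell, the rises dropping to 4 without DMSO replicate 3 or without Dox replicate 1. The peptide hormone ADM was at 17.3, 15.3, 18.3 and 14.3 CPM with DMSO and 22.1, 22.5, 21.5 and 23.6 CPM with Dox, a log2 fold change of 0.47 ± 0.078 (SE, adjusted p = 3.65e-06). NDRG1 was at 56.4, 61.4, 57.5 and 55.2 CPM with DMSO and 75.8, 78.7, 81.3 and 73.6 CPM with Dox, a log2 fold change of 0.42 ± 0.053 (SE, adjusted p = 1.78e-09), and the mTOR inhibitor DDIT4 rose by 0.60. VEGFA was not called, at 0.079 ± 0.057 (SE, adjusted p = 0.383), and HILPDA, a lipid droplet protein, fell by 0.36. CA9, a marker of hypoxia in this list, was not tested, with at most 1 count in a DMSO library and 6 in a Dox library.

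Serine and folate-bound one-carbon units feed purine and thymidylate synthesis. Of 32 tested genes 13 fell and 0 were called higher, with a median of -0.10, and of the 23 abundant members 12 were lower. CAD, which starts pyrimidine synthesis, was at 171, 180, 178 and 159 CPM with DMSO and 140, 152, 146 and 147 CPM with Dox. Its log2 fold change was -0.23 ± 0.039 (SE, adjusted p = 4.2e-06), and the groups did not overlap. IMPDH2, which commits IMP to guanine nucleotides, was at 193, 198, 193 and 192 CPM with DMSO and 162, 168, 174 and 172 CPM with Dox, a log2 fold change of -0.20 ± 0.038 (SE, adjusted p = 3.68e-05). The serine hydroxymethyltransferases SHMT1 (cytosolic) and SHMT2 (mitochondrial) fell by 0.32 and 0.16. NME1, a nucleoside diphosphate kinase, fell by 0.20 and lies on the 17q segment. Of 21 polyamine and amino acid genes 2 rose and 4 fell: the spermidine synthase SRM fell by 0.19, while SAT1, which acetylates polyamines for export, and the argininosuccinate synthase ASS1 rose by 0.26 and 0.36.

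Fatty acids and sterols are both built from acetyl-CoA. In fatty acid synthesis 5 of 15 tested genes fell and 2 rose. FASN, fatty acid synthase, was at 1020, 1050, 977 and 933 CPM with DMSO and 708, 762, 738 and 714 CPM with Dox, a log2 fold change of -0.44 ± 0.036 (SE, adjusted p = 4.62e-17), and lies on the 17q segment. FADS2, a desaturase, was at 37.2, 39.7, 38.1 and 36.5 CPM with DMSO and 29.3, 27.9, 29.5 and 28 CPM with Dox, a log2 fold change of -0.40 ± 0.064 (SE, adjusted p = 1.45e-06), and LPIN1, a phosphatidate phosphatase, at 147, 137, 150 and 148 CPM with DMSO and 111, 113, 111 and 114 CPM with Dox, a log2 fold change of -0.37 ± 0.040 (SE, adjusted p = 6.92e-12). Neither LPIN1 nor FADS2 overlapped between groups, and the desaturase SCD was not called, at -0.052 ± 0.033 (SE, adjusted p = 0.3). INSIG2, which retains the sterol sensor SCAP in the endoplasmic reticulum, rose by 0.47. Of 25 cholesterol genes 4 rose (2 without DMSO replicate 2) and 1 fell, while the list's median was slightly below 0 at -0.028 and changed sign under another scaling. MSMO1, a sterol oxidase, was at 36.9, 36.2, 32.3 and 38.3 CPM with DMSO and 47, 46.6, 43.6 and 48.8 CPM with Dox, a log2 fold change of 0.37 ± 0.062 (SE, adjusted p = 4.4e-06). The epoxidase SQLE was not called, at 0.025 ± 0.040 (SE, adjusted p = 0.733).

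**Figure D4:**
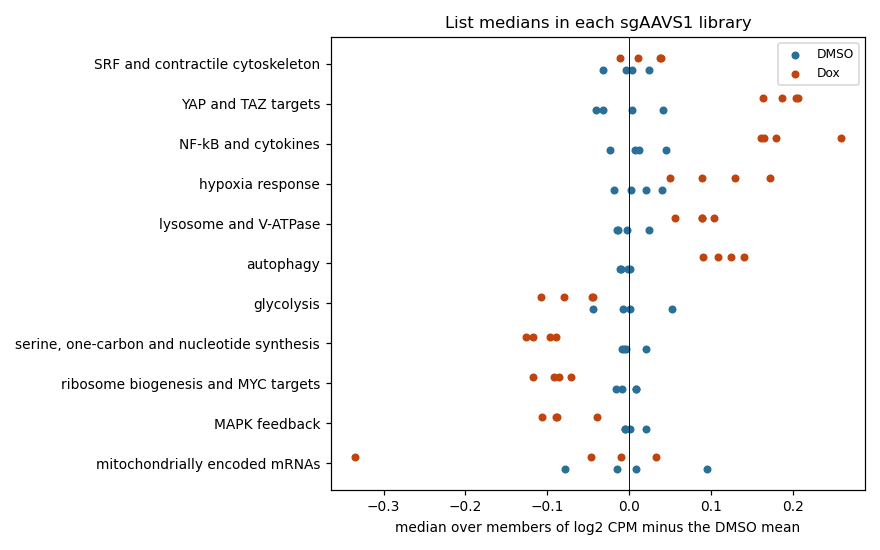
Median over each list's tested members of log2 CPM minus the mean of the 4 DMSO libraries, for 11 lists; each point is a library. The Dox points of ribosome biogenesis, one-carbon genes, lysosome and autophagy stand clear of the DMSO points, while the mitochondrially encoded mRNAs spread widely and Dox replicate 2 is lowest.

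Mitochondria make 13 proteins from their own genome on their own ribosomes, and import the rest. Since Dox can act on those ribosomes, the lists for both genomes were examined. RNA counts do not measure translation, so an effect of Dox on protein synthesis there was not tested. None of the 13 mitochondrially encoded mRNAs was called by edgeR, with a median of -0.086. With no filter on low counts 5 of the 13 were called lower and 1 higher, and in the fit of the 8 libraries alone 2 were called lower. MT-CO1, a catalytic subunit of complex IV, was at 16300, 16800, 17000 and 17800 CPM with DMSO and 16600, 14300, 15700 and 15800 CPM with Dox, a log2 fold change of -0.12 ± 0.050 (SE, adjusted p = 0.0879). MT-ND1 and MT-CYB, of complexes I and III, gave -0.093 ± 0.091 (SE, adjusted p = 0.55) and -0.086 ± 0.099 (SE, adjusted p = 0.624). The share of all counts held by these 13 mRNAs was 8.01%, 8.16%, 8.39% and 8.88% with DMSO and 8.68%, 6.99%, 8.32% and 8.23% with Dox. Dox replicate 2 was lowest and the other 3 Dox libraries lay within the DMSO range. Without Dox replicate 2 the median of the 13 was -0.0076. Of 36 nuclear genes of complex I 1 rose and 1 fell. Of 39 of complexes II to V 5 fell (1 on the 17q segment) and 0 were called higher, the 5 becoming 3 without DMSO replicate 3, Dox replicate 1 or Dox replicate 2. Among the 30 abundant members of complexes II to V 4 were lower, against 20.6% of abundant genes in all. UQCRC1, a core subunit of complex III, fell by 0.16. Of 77 mitochondrial ribosomal protein genes 10 fell and 1 rose, and 5 of the 10 lie on the 17q segment, among them MRPL12 (fell by 0.30). Of the 71 tested off the segment 5 fell, near the share of 7.77% over all genes off it. MRPS34, off the segment, fell by 0.22. In import and proteostasis 8 of 36 fell and 2 rose, and among 23 abundant members 8 were lower, against 20.6% of abundant genes in all. The matrix protease LONP1 was at 300, 319, 323 and 294 CPM with DMSO and 261, 269, 275 and 275 CPM with Dox and fell by 0.19, and the chaperone TRAP1 by 0.20. The protease subunit CLPP and the mitochondrial transcription factor TFAM were not called, at -0.035 ± 0.039 (SE, adjusted p = 0.604) and 0.00017 ± 0.050 (SE, adjusted p = 0.998). Of 22 citric acid cycle genes 4 fell and 0 were called higher, the 4 becoming 0 without Dox replicate 1 and 1 without DMSO replicate 2, DMSO replicate 3 or Dox replicate 2.

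Blocked mitochondrial translation is known to raise ATF4, the effector of the integrated stress response, and its targets for amino acid synthesis. Of 28 tested genes of that response 2 rose and 6 fell (1 on the 17q segment), 3 without DMSO replicate 2. Among its 15 abundant members 6 were lower, against 20.6% of abundant genes in all. ATF4 itself was at 191, 200, 198 and 185 CPM with DMSO and 183, 170, 189 and 176 CPM with Dox, a log2 fold change of -0.11 ± 0.037 (SE, adjusted p = 0.0334), and the call was lost without DMSO replicate 2, DMSO replicate 3, Dox replicate 2 or Dox replicate 4. The targets DDIT3, TRIB3 and ASNS were not called, at -0.00045 ± 0.084 (SE, adjusted p = 0.998), -0.0037 ± 0.051 (SE, adjusted p = 0.972) and -0.31 ± 0.36 (SE, adjusted p = 0.615), and ASNS was near 1 CPM in both groups. The glutamine transporter SLC1A5 fell by 0.15. In the unfolded protein response of the endoplasmic reticulum, which the series' title names, 4 of 26 rose and 3 fell. The rises were 2 without DMSO replicate 2 or without Dox replicate 1, 3 or 4, and the falls were 1 without DMSO replicate 2. Abundant members of that list numbered 16, with 3 lower, near the 20.6% of abundant genes in all. The chaperone HSPA5 and the transcription factor XBP1 were not called, at -0.076 ± 0.028 (SE, adjusted p = 0.0538) and 0.016 ± 0.050 (SE, adjusted p = 0.868). SEL1L, a membrane adaptor of ER-associated degradation, rose by 0.21. In the heat shock list 2 of 18 rose and 5 fell, and among 15 abundant members 5 were lower, against 20.6% of abundant genes in all. HSP90AB1 was at 3700, 3690, 3770 and 3670 CPM with DMSO and 3300, 3410, 3400 and 3350 CPM with Dox and fell by 0.14. HSPA8 and the co-chaperone STIP1 fell by 0.12 and 0.14, and DNAJB4 rose by 0.48. Inducible HSPA1A was not tested, with at most 8 counts in a library. In the NRF2 list 3 of 22 rose and 4 fell, 2 without Dox replicate 2. HMOX1, heme oxygenase, was at 65.6, 69.5, 66.4 and 63.2 CPM with DMSO and 77.3, 75.1, 78.8 and 73.2 CPM with Dox, a log2 fold change of 0.20 ± 0.047 (SE, adjusted p = 0.000927), while the NRF2 targets NQO1 and GCLM were not called, at -0.11 ± 0.042 (SE, adjusted p = 0.0513) and 0.13 ± 0.066 (SE, adjusted p = 0.168), and TXNRD1 fell by 0.11. The metallothioneins MT2A and MT1X were not called, at -0.058 ± 0.040 (SE, adjusted p = 0.363) and 0.11 ± 0.065 (SE, adjusted p = 0.277).

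Lysosomes digest with acid hydrolases in a lumen that the V-ATPase keeps acid. Of 39 tested genes 15 rose and 1 fell, the latter on the 17q segment, with a median of 0.078. When single libraries were left out, 11 to 14 rose. The 15 rises were of at most 0.30. NEU1, a sialidase, was at 17.1, 15.2, 14 and 14.5 CPM with DMSO and 19.4, 18.9, 17.5 and 18.6 CPM with Dox, without overlap, with a log2 fold change of 0.30 ± 0.080 (SE, adjusted p = 0.00537). ATP6V1H, a regulatory subunit of the V-ATPase, was at 75, 68.9, 72.4 and 74.6 CPM with DMSO and 81.8, 89.8, 83.6 and 87.6 CPM with Dox, a log2 fold change of 0.24 ± 0.044 (SE, adjusted p = 3.68e-05), and ATP6V1G1, a stalk subunit of the same pump, rose by 0.16. PSAP, the precursor of the saposins that present lipids to hydrolases, was at 623, 643, 626 and 617 CPM with DMSO and 711, 742, 714 and 714 CPM with Dox, a log2 fold change of 0.20 ± 0.032 (SE, adjusted p = 1.89e-06). The membrane protein LAMP1 and the protease CTSD were not called, at 0.021 ± 0.031 (SE, adjusted p = 0.715) and 0.078 ± 0.047 (SE, adjusted p = 0.276). Autophagy delivers cytoplasm to lysosomes. Of 32 tested genes 10 rose and 0 were called lower by edgeR, with a median of 0.088. GABARAPL1, of the ATG8 family that coats autophagosomes, was at 8.64, 8.74, 9.61 and 8.48 CPM with DMSO and 11.5, 11, 12.5 and 13.3 CPM with Dox, a log2 fold change of 0.45 ± 0.10 (SE, adjusted p = 0.00091). OPTN, a cargo receptor, was at 52, 49.9, 54.4 and 52.2 CPM with DMSO and 59.4, 60.1, 67.1 and 65 CPM with Dox, a log2 fold change of 0.27 ± 0.051 (SE, adjusted p = 4.74e-05), and MAP1LC3B rose by 0.15 with some overlap. The cargo receptor SQSTM1 was not called, at 0.066 ± 0.041 (SE, adjusted p = 0.288). TP53INP1 and DRAM1, which are known p53 targets, are among the 10.

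The splicing genes that were called were lower with Dox. Of 41 SR and hnRNP splicing proteins 8 fell and 0 were called higher, and of 41 core spliceosome genes 11 fell and 0 were called higher. These are 19.5% and 26.8% of the tested members. Among the abundant members alone, 8 of 35 and 11 of 34 were lower, against 20.6% for abundant genes in all. PTBP1, a splicing repressor, was at 783, 825, 815 and 784 CPM with DMSO and 736, 716, 742 and 719 CPM with Dox, a log2 fold change of -0.14 ± 0.031 (SE, adjusted p = 0.000667). RBM10 and the spliceosome core protein PRPF8 fell by 0.18 and 0.17, while SF3B1 was not called, at -0.006 ± 0.035 (SE, adjusted p = 0.93). Of 47 mRNA decay genes 5 rose and 8 fell, the rises being 1 to 4 when single libraries were left out, 1 of them without DMSO replicate 3 or without Dox replicate 4, 2 without Dox replicate 1 and 3 without DMSO replicates 1 or 4 or Dox replicates 2 or 3. Abundant members of the decay list numbered 21, with 4 lower, near the 20.6% of abundant genes in all. The nonsense-mediated decay helicase UPF1 and the exosome subunit EXOSC1 fell by 0.14 and 0.23, and the deadenylase subunit PAN3 rose by 0.23.

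Proteasomes and cullin ligases carry out regulated protein turnover. Of 39 proteasome genes 1 rose and 2 fell (1 on the 17q segment). Of 33 cullins and adaptors 1 rose and 4 fell (2 on the 17q segment, SPOP among them). CUL3, the scaffold that SPOP joins, was not called, at 0.064 ± 0.046 (SE, adjusted p = 0.378). Of 43 genes of ER translocation, degradation and glycosylation 7 fell (2 on the 17q segment) and 1 rose, 4 falling without Dox replicate 1. Among the 32 abundant members of that list 6 were lower, against 20.6% of abundant genes in all. GANAB, glucosidase II alpha, was at 434, 428, 420 and 412 CPM with DMSO and 372, 385, 369 and 362 CPM with Dox and fell by 0.19. Of 40 COPI, COPII and Golgi genes 2 rose and 1 fell. Cilia genes gave 1 rise and 1 fall of 29 tested, the fall on the 17q segment. In the tubulin list 7 of 22 fell (1 on the 17q segment) and 1 rose, 4 falling without Dox replicate 4, and TUBA1B fell by 0.14. Among the 17 abundant members of that list 7 were lower, against 20.6% of abundant genes in all.

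Breaks made by Cas9 are repaired by end joining or by homologous recombination. Of 47 tested genes of double-strand break repair 9 fell (19.1%, against 8.75% of all tested genes) and 0 were called higher by edgeR. Abundant members numbered 10, with 4 lower, against 20.6% of abundant genes in all. RBBP8 (CtIP), which starts end resection, was at 40.5, 38.3, 36.9 and 45.3 CPM with DMSO and 32.9, 32.2, 33.8 and 34.2 CPM with Dox, with a log2 fold change of -0.28 ± 0.061 (SE, adjusted p = 0.000502) and no overlap. XRCC3, a protein of homologous recombination, was at 72.8, 74.9, 70.1 and 65.3 CPM with DMSO and 58.4, 61.5, 60.1 and 61.1 CPM with Dox, a log2 fold change of -0.23 ± 0.048 (SE, adjusted p = 0.000212). H2AX, the histone variant phosphorylated at breaks, fell by 0.26, and BRCA1 was not called, at -0.11 ± 0.061 (SE, adjusted p = 0.216). Several members, such as EXO1 and FANCD2, are known to be made mostly in S phase, and cell cycle genes were lower in the same libraries (19 of 42 tested, 0 called higher, 12 without DMSO replicate 2). The part of the cell cycle in this list's falls was not tested. Of 58 chromatin modifiers 10 fell and 2 rose. Among the 31 abundant members 9 were lower, against 20.6% of abundant genes in all. DOT1L, the histone H3 lysine methyltransferase of transcribed genes, was at 252, 250, 252 and 231 CPM with DMSO and 206, 209, 190 and 195 CPM with Dox, a log2 fold change of -0.30 ± 0.038 (SE, adjusted p = 2.45e-09). BRD2, a reader of acetylated histones, was at 72.9, 78.8, 77 and 77.2 CPM with DMSO and 63.8, 62.2, 66.1 and 61.4 CPM with Dox, a log2 fold change of -0.27 ± 0.047 (SE, adjusted p = 6.54e-06). DNMT1 and the remodeller SMARCA4 fell by 0.17 and 0.15, and the deacetylase HDAC9 was at 13.3, 13.5, 12.5 and 13.4 CPM with DMSO and 19.4, 14.9, 20.6 and 18.8 CPM with Dox and rose by 0.49 ± 0.082 (SE, adjusted p = 4.5e-06). Of 20 histone genes 4 rose and 4 fell, the rises becoming 2 without DMSO replicates 1 or 3 or Dox replicates 2 or 4. H2BC12 and H2BC5, whose mRNAs can be polyadenylated, rose by 0.38 and 0.36.

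Among 33 genes of the BCL2 family and death receptors 10 rose and 3 fell (1 on the 17q segment), with a median of 0.13. BAK1, which permeabilises the mitochondrial outer membrane, was at 104, 109, 110 and 102 CPM with DMSO and 127, 129, 135 and 126 CPM with Dox, a log2 fold change of 0.28 ± 0.042 (SE, adjusted p = 3.26e-07). BCL2L1, whose long form protects cells, was at 197, 199, 192 and 189 CPM with DMSO and 211, 214, 219 and 217 CPM with Dox, a log2 fold change of 0.15 ± 0.034 (SE, adjusted p = 0.000904). MCL1, a short-lived protector, went down, at 896, 864, 870 and 919 CPM with DMSO and 800, 783, 752 and 787 CPM with Dox, a log2 fold change of -0.18 ± 0.035 (SE, adjusted p = 5.33e-05). FAS and BBC3 of this list are also in the p53 list. Of 20 MHC class I and peptide loading genes 5 rose and 0 were called lower, 3 rising without DMSO replicate 1 or without DMSO replicate 4. Of 15 S100 and annexin genes 4 rose and 0 were called lower. S100A2, a calcium-binding protein among the most abundant transcripts to rise, was at 2300, 2560, 2450 and 2280 CPM with DMSO and 3540, 3820, 3960 and 3630 CPM with Dox. Its log2 fold change was 0.64 ± 0.068 (SE, adjusted p = 3.15e-08), without overlap, and ANXA4 rose by 0.26. p53 targets, given as a measured fact beside these lists, were called higher in 15 of 33 cases and lower in 0, and interferon genes in 7 and 0 of 29.

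Outside the lists, some of the leading genes belong to no common theme. CUBN, cubilin, an endocytic receptor, was at 4.55, 5.08, 5.34 and 4.65 CPM with DMSO and 8.57, 8.87, 7.51 and 8.56 CPM with Dox, a log2 fold change of 0.78 ± 0.14 (SE, adjusted p = 9.16e-06). MYO5B, a motor of recycling endosomes, and the tetraspanin CD82 rose by 0.72 and 0.68, and the G protein regulator RGS3 by 0.68. On the falling side, UNC5A, a netrin receptor, was at 4.02, 4.27, 4.5 and 5.24 CPM with DMSO and 3.58, 2.9, 2.77 and 2.27 CPM with Dox, a log2 fold change of -0.64 ± 0.15 (SE, adjusted p = 0.00157). RAB3IP (rabin8), an exchange factor for the GTPase RAB8, was at 87.5, 86.7, 92.7 and 98.6 CPM with DMSO and 63.8, 65.7, 63.4 and 69.3 CPM with Dox, a log2 fold change of -0.48 ± 0.047 (SE, adjusted p = 2.39e-13). RNF208, a RING finger protein, was at 70.6, 71.1, 68.4 and 69.1 CPM with DMSO and 52.9, 46.9, 46.1 and 53.9 CPM with Dox, a log2 fold change of -0.48 ± 0.056 (SE, adjusted p = 3.92e-10), and SEMA7A, a membrane-anchored semaphorin, at 55.1, 57.8, 53.9 and 52.6 CPM with DMSO and 42, 33.5, 41.1 and 41.4 CPM with Dox, a log2 fold change of -0.47 ± 0.063 (SE, adjusted p = 2.63e-08). BCL2A1, a BCL2 relative and NF-kB target, was at 164, 169, 166 and 184 CPM with DMSO and 130, 125, 129 and 126 CPM with Dox, and its log2 fold change was -0.42 ± 0.042 (SE, adjusted p = 2.76e-13), against the direction of BIRC3. The rule by which these 9 leading genes were chosen required that the 4 Dox libraries lie clear of the 4 DMSO libraries. Over all 11428 tested genes, 2002 (17.5%) did so.

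The same induction was made in the sgIGF2BP2 and sgIGF2BP3 lines, with their own DMSO libraries, so no library is shared and the difference between Dox effects could be tested. Beyond induction, those lines lose their target gene, and line, guides and knockout cannot be told apart in a difference. The Dox effect in sgAAVS1 cells differed from that in sgIGF2BP2 cells at 812 genes (7.11%) and from that in sgIGF2BP3 cells at 895 (7.83%). With the 17q genes from SPOP left out of the fit, 687 and 764 genes differed. Several genes of growth signalling that fell here were higher or level there. MYC gave -0.41 in sgAAVS1 cells, 0.19 in sgIGF2BP2 cells and 0.061 in sgIGF2BP3 cells, with differences of -0.59 ± 0.060 (adjusted p = 8.4e-11) and -0.47 ± 0.060 (adjusted p = 2.55e-07). DUSP6 gave -0.34, 0.35 and 0.10 in the same order, with differences of -0.69 ± 0.057 (adjusted p = 3.23e-16) and -0.44 ± 0.058 (adjusted p = 5.61e-08). DUSP1 fell in sgAAVS1 cells but gave 0.35 and 0.35 in the others, with differences of -0.79 ± 0.11 (adjusted p = 3.51e-07) and -0.79 ± 0.11 (adjusted p = 5.18e-07). PLAU fell here and rose in both others, by 0.80 and 0.44, with differences of -1.18 ± 0.13 (adjusted p = 2.66e-11) and -0.82 ± 0.13 (adjusted p = 6.69e-06). Over the whole MAPK feedback list, the median was -0.046 here, 0.070 in sgIGF2BP2 cells and 0.054 in sgIGF2BP3 cells.

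Some genes of ribosome biogenesis and nucleotide synthesis also had a lower Dox effect here than in the other lines. NOP56 gave -0.047 and 0.012 in the other lines, with differences of -0.20 ± 0.046 (adjusted p = 0.00287) and -0.25 ± 0.046 (adjusted p = 8.42e-05). NOB1 differed by -0.35 ± 0.058 (adjusted p = 9.58e-06) and -0.34 ± 0.058 (adjusted p = 3.54e-05), and CAD by -0.22 ± 0.055 (adjusted p = 0.00711) and -0.29 ± 0.055 (adjusted p = 0.000164). The list median of ribosome biogenesis was -0.091 here, -0.036 and -0.013 in the others. Some rises were also greater here. ID1 rose in sgIGF2BP2 and sgIGF2BP3 cells by 0.27 and 0.25, less than here by 0.45 ± 0.10 (adjusted p = 0.00154) and 0.46 ± 0.10 (adjusted p = 0.0015). CLCF1 gave 0.071 and 0.057 there, with differences of 0.62 ± 0.12 (adjusted p = 0.00013) and 0.63 ± 0.12 (adjusted p = 0.000127). REL gave -0.40 and -0.22, with differences of 0.96 ± 0.22 (adjusted p = 0.00199) and 0.79 ± 0.22 (adjusted p = 0.0138).

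Of the 34 tested contractile and SRF genes, 13 differed in Dox effect from sgIGF2BP2 cells and 9 from sgIGF2BP3 cells, and whether these counts differ was not tested. TAGLN rose by 0.96 in sgIGF2BP3 cells, with a difference from sgAAVS1 cells of 0.032 ± 0.11 (adjusted p = 0.9), and by 0.28 in sgIGF2BP2 cells, with a difference of 0.71 ± 0.11 (adjusted p = 5.89e-06). CALD1 rose in both, by 0.28 and 0.54, with differences of 0.51 ± 0.079 (adjusted p = 1.86e-06) and 0.25 ± 0.078 (adjusted p = 0.0339). MYL9 differed from sgIGF2BP2 cells by 0.35 ± 0.068 (adjusted p = 0.000293) and from sgIGF2BP3 cells by 0.13 ± 0.068 (adjusted p = 0.224). ACTG1 differed from sgIGF2BP3 cells by -0.33 ± 0.042 (adjusted p = 4.93e-08) and from sgIGF2BP2 cells by -0.091 ± 0.042 (adjusted p = 0.186). For SYNPO the same differences were 0.48 ± 0.14 (adjusted p = 0.0167) and 0.028 ± 0.14 (adjusted p = 0.936). The V-ATPase subunit ATP6V1H rose in sgIGF2BP2 cells by 0.17, with a difference of 0.065 ± 0.062 (adjusted p = 0.606), and gave -0.06 in sgIGF2BP3 cells, with a difference of 0.30 ± 0.063 (adjusted p = 0.00096). The lysosome median was 0.078 here, 0.074 and 0.032 there. Other genes rose or fell in all 3 lines. IER5L rose in both other lines, by 0.90 and 1.08, with differences of 0.34 ± 0.086 (adjusted p = 0.00788) and 0.15 ± 0.086 (adjusted p = 0.293). LPIN1 fell in each, with differences of 0.04 ± 0.056 (adjusted p = 0.747) and -0.09 ± 0.056 (adjusted p = 0.345), and PKM rose in each, with differences of 0.029 ± 0.045 (adjusted p = 0.77) and -0.036 ± 0.045 (adjusted p = 0.675). S100A2 rose by 0.49 and 0.63, with differences of 0.14 ± 0.096 (adjusted p = 0.417) and 0.012 ± 0.096 (adjusted p = 0.963). A difference that misses the threshold does not show that the effects are equal, and the standard errors give the size that could have been seen.

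**Figure D5:**
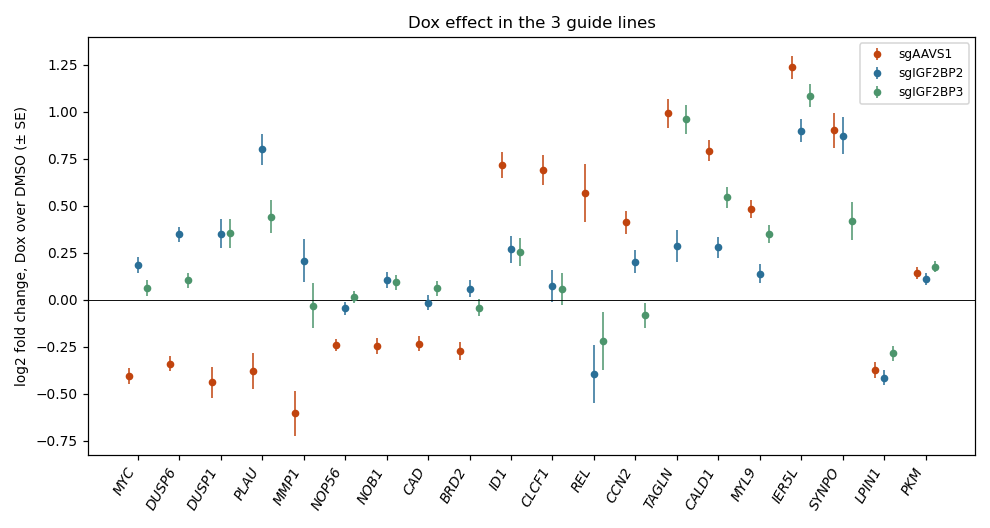
Log2 fold change (Dox over DMSO, ± SE) of 20 genes in the sgAAVS1, sgIGF2BP2 and sgIGF2BP3 lines, from 4 Dox and 4 DMSO libraries each. MYC, DUSP6, DUSP1 and PLAU lie below 0 in sgAAVS1 cells and above 0 in both other lines, whereas IER5L, SYNPO and PKM lie above 0 and LPIN1 below 0 in all 3.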

How the data were processed

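Poly(A) RNA of RKO iCas9 cells was sequenced as SLAMseq libraries, and the authors deposited whole-number counts of reads per gene, not normalized, for 40 libraries. Reads were processed with bcl2fastq 2.20.0.422 and STAR 2.7.5c on hg38, per the submitters' processing notes. The counting tool, annotation and use of strand are not given in the sources used here, and s4U conversions were not analysed here. Counts cannot separate newly made from older RNA. Identifiers were matched to symbols for 19895 of 19962 genes, and positions are those of GENCODE 29 (GRCh38), which may differ from the authors' annotation. Of the 165 genes named, 22 share exon bases with a gene on the opposite strand.

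Genes were kept with filterByExpr by group and scaled by TMM (factors 0.978 to 1.029 in the 8 libraries). The fit was edgeR 4.0.16 in R 4.3.3, estimateDisp and glmQLFit with robust options, over all 40 libraries with a coefficient per group and 30 residual degrees of freedom, so that the 10 groups share the estimate of spread. Standard errors are the size of the log2 fold change divided by the square root of F. CPM are TMM-scaled. The common biological coefficient of variation was 3.79%. The chi-square statistic per gene was 1.56 to 4.90 over the 12 replicate pairs, above the 1 of sampling noise, and all 8 libraries were kept as separate replicates. On simulated data with only the sgAAVS1 Dox group changed, at 200 of 11357 genes, the fit called 18.0% of changes of 0.15, 64.0% of 0.3 and 92.0% of 0.6 on the log2 scale. It made 5 false calls. The simulation gave every gene the same biological spread. It also changed a smaller share of genes than was called in the data, which makes the adjusted threshold stricter. The simulated shares therefore do not carry over to the data.

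The comparison, the 58 gene lists (53 pathway lists, 3 of excluded themes and 2 of identity markers) and the naming rule were chosen with earlier results of these data known. The rule takes the first 3 members of a list with up to 5 called members each way, the 15 leading rises and falls outside the excluded themes and 17q whose mean log2 CPM reached 2 and whose groups did not overlap, PPP1R12C and SPOP. Genes given here are a part of these (a few are not reported here), and 9 outside the rule were added after their values were seen: ATP6V1G1, JUNB, JUND, MYBBP1A, NFKB2, NOP14, SMARCA4, TAGLN2 and UPF1. Alternatives were DESeq2 1.42.0, other scalings and filters, the 8 libraries alone, each library left out, a replicate block, a test against 1.2-fold, exclusion of 17q, thinning, and offsets for GC content and length.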

Additional observations from a re-analysis of the deposited data

Results flagged for a closer look

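Single libraries stood apart from the other 3 of their group, by Dixon's ratio, in 13 of the 330 groups of 4 looked at (165 genes in DMSO and in Dox libraries), where chance alone marks about 1 in 20. In DMSO replicate 1, TPM2 was at 43.7 CPM against 39.8 to 40.4 in the other 3. In DMSO replicate 2, IMPDH2 was at 198 CPM against 192 to 193, ITGAV was at 35.6 CPM against 42.6 to 44 and PLAUR was at 242 CPM against 228 to 229 in the other 3. In DMSO replicate 4, DOT1L was at 231 CPM against 250 to 252 in the other 3. In Dox replicate 2, CLPP was at 187 CPM against 201 to 202, MT2A was at 2010 CPM against 2040 to 2050, PSAP was at 742 CPM against 711 to 714 and SEMA7A was at 33.5 CPM against 41.1 to 42 in the other 3. In Dox replicate 3, MRPL12 was at 29.2 CPM against 31.7 to 32.1 and NOP14 was at 159 CPM against 151 to 153 in the other 3. In Dox replicate 4, SHMT1 was at 23.4 CPM against 19.2 to 19.4 and SQSTM1 was at 178 CPM against 165 to 167 in the other 3.

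The Dox effect of sgAAVS1 cells differed from that of another line for 83 of the 165 genes by edgeR's test of the difference, with adjusted p-values of at most 0.0371. Many of the 165 were chosen for called changes in sgAAVS1 cells, which enter the difference, so the choice itself raises this count. Over all tested genes, 7.11% differed from sgIGF2BP2 cells and 7.83% from sgIGF2BP3 cells. Values are differences of log2 fold changes, sgAAVS1 minus the other line, and for each gene the larger called difference is given. The effect lay above that in sgIGF2BP2 cells for REL (0.96), TAGLN (0.71), INSIG2 (0.58), CALD1 (0.51), MYL9 (0.35), IER5L (0.34), PAN3 (0.31), TAGLN2 (0.29), TPM2 (0.25) and TUBA1B (0.15). The effect lay below that in sgIGF2BP2 cells for SOX9 (-1.99), SPOP (-1.86), ACTA2 (-1.18), PLAU (-1.18), UNC5A (-1.08), MMP1 (-0.81), DUSP6 (-0.69), MYC (-0.59), SPRY2 (-0.47), BCL2A1 (-0.37), NOB1 (-0.35), MRPL12 (-0.34) and BRD2 (-0.33). Further such genes were BCL2L1 (-0.33), SAT1 (-0.32), LIF (-0.30) and HMOX1 (-0.30). The effect lay above that in sgIGF2BP3 cells for HDAC9 (0.84), CCN3 (0.73), HES1 (0.66), CLCF1 (0.63), DNAJB4 (0.56), CD82 (0.51), CCN2 (0.49), SYNPO (0.48), IL11 (0.48), MSMO1 (0.47), ID1 (0.46), ITGAV (0.43) and H2BC12 (0.42). Further such genes were ATP6V1H (0.30), OPTN (0.26), NDRG1 (0.24), CCN1 (0.21), CUL3 (0.21) and LAMB1 (0.17). The effect lay below that in sgIGF2BP3 cells for DUSP1 (-0.79), RNF208 (-0.52), HILPDA (-0.51), FASN (-0.47), SLC16A3 (-0.42), SEMA7A (-0.40), FADS2 (-0.36), ACTG1 (-0.33), DOT1L (-0.32), ZFP36L1 (-0.32), XRCC3 (-0.30), CAD (-0.29) and NOP56 (-0.25). Further such genes were RAB3IP (-0.25), GAPDH (-0.25), RBM10 (-0.23), JAG2 (-0.23), GANAB (-0.23), MMP14 (-0.23), H2AX (-0.22), IMPDH2 (-0.22), MRPS34 (-0.21), LONP1 (-0.20), PHLDA1 (-0.20), MYBBP1A (-0.20) and ENO1 (-0.20). Others were SLC1A5 (-0.20), MYH9 (-0.19), EEF2 (-0.18), TRAP1 (-0.18), TGFB1 (-0.18), SPRY4 (-0.18), SHMT2 (-0.18), SRM (-0.18), PRPF8 (-0.17), MCL1 (-0.17) and RPLP0 (-0.16). In the other lines induction is also meant to remove the targeted gene, and line, guides and knockout cannot be told apart.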

How the results depend on the processing

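Of 21 alternative fits, the test against a change of 1.2-fold moved the counts most, to 50 genes (37 higher, 13 lower), with 25 differences from sgIGF2BP2 cells and 6 from sgIGF2BP3 cells. That test asks for changes larger than 1.2-fold by its construction. Leaving out single libraries gave 1313 to 2023 called genes, 540 to 1173 differences from sgIGF2BP2 cells (540 without DMSO replicate 2) and 540 to 1429 from sgIGF2BP3 cells (540 without DMSO replicate 2, 1429 without DMSO replicate 4). With offsets for GC content and length, 404 differences from sgIGF2BP3 cells were called, and 409 with a replicate block added; the cause was not tested. Replicate numbers did not pair the samples, since deviations of same-numbered libraries correlated at -0.026 to 0.032 and 1 of 4 correlated best with its own number. With a replicate block the 8 libraries gave 1950 called genes and all libraries 1834. Of 3456 values of the genes named, 3320 kept their side of the threshold, 112 lost the call (104 of them in the test against 1.2-fold) and 24 gained it. Where either fit called the gene, 0 reversed. Values called in neither fit could change sign and are counted among the 3320. Outside that test ATF4 lost its call under 7 alternatives and REL under thinning, and the calls gained were of MT-CO1, HSPA5, NQO1, FBL, SQSTM1, CTSD and SCD. Of the 13 mitochondrially encoded mRNAs, 5 were called lower and 1 higher with no filter on low counts. Of 1113 list medians, 1004 moved by less than the spread between libraries. Depth limits the genes of low counts. In simulated data, changes of 0.15 on the log2 scale were mostly not called. That simulation changed a smaller share of genes than was called in the data, so its adjusted threshold was stricter. It therefore does not give the size of change detectable in the data.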

Other observations

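Lists whose counts were not given above held few called genes. Of 19 fatty acid oxidation genes 1 rose and 2 fell, of 11 genes of the EGFR family and its ligands 2 rose and 0 were called lower by edgeR (1 at an unadjusted p under 0.05, 0 by DESeq2), and of 17 metallothionein and metal handling genes 1 rose and 2 fell. Of 31 mitochondrial gene expression factors 4 fell (1 of them on the 17q segment), 1 without DMSO replicate 2 and 2 without Dox replicate 1, and 0 were called higher by edgeR, DESeq2 or at an unadjusted p under 0.05. The counts of 1 or 2 in the other 3 lists mostly changed when single libraries were left out.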
